A study of Mus musculus with 2 samples.

Results

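The genes described here are the collagen chain genes of mouse skin, named Col, a number, the letter a and a number. They were found by their symbol, either the array's own or the current one reached through the probe's accession. The array held 85 such probes for 43 collagen genes, among 41167 probes for 27594 genes or transcripts in all. A gene was counted as measured where at least 1 of its probes was well above background in at least 1 colour of array 1, which held for 24 collagen genes (32 probes) and for 10456 genes in all. By class, 8 of 11 fibrillar, 4 of 6 basement membrane, 3 of 9 FACIT (fibril-associated collagens with interrupted triple helices) and 9 of 17 other collagens were measured.

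RNA came from the skin of 25-day-old mice on a C57BL/6 background that carried a Pla2g2f transgene on one allele (Pla2g2f-Tg/+), and from littermates labelled Control. Pla2g2f encodes a secreted phospholipase A2, and the series' title describes these mice as losing hair and having a thick epidermis that resembles psoriasis. Each genotype was represented by RNA pooled from 4 mice. The sources used here do not name the promoter that drives the transgene. The same comparison was run on 2 arrays with the dyes exchanged: the transgenic pool carried Cy5 on array 1 and Cy3 on array 2. Nothing in the labels says that separate pools were used, so the arrays were averaged as 1 replicate. Technical and biological error cannot be told apart in the spread between them, which gives no p-value for a difference between mice. All values below are log2 ratios of transgenic over control on the deposited scaling, given for array 1, then array 2, then as their mean. A gene was called by size where it differed by at least 1.5-fold, or by at least 2-fold, in the same direction on each array.

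Collagen chains wind around one another into a rope-like helix made of repeats that begin with glycine. In skin, fibrillar collagens form the cables of the dermis, FACIT collagens coat those cables, and type IV collagens form the sheet under the epidermis, around vessels and around hair follicles. Further collagens anchor that sheet to the dermis, form beaded filaments or form hexagonal nets.

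Some values of the whole comparison bear on the collagens. The probe for Pla2g2f itself read 0.54 and 0.34, a mean of 0.44 that missed the 1.5-fold rule on both arrays and was -0.020 on the spike-in scale described next. The skin markers Krt14, Krt5, Krt15, Krt10, Krt1, Itga6 and Itgb4 were measured (7 of 7), as were 12 of 12 fibroblast markers. The 10 probes for spike-in RNA, which is added to the samples as a control, read 0.46 as transgenic over control. Every ratio therefore drops by 0.46 where the arrays are centred on them, called the spike-in scale below. Probes printed 10 times on the array had a median SD of 0.09 on array 1 and 0.10 on array 2. The difference between the arrays had a median size of 0.23 over all genes and 0.28 over the collagens. Fewer cells of a type and less RNA per cell cannot be told apart in RNA of whole skin.

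The collagens did not move as a block. At 2-fold, 0 collagens were higher, 1 was lower (Col8a2) and 23 were neither, beside 3.72% of all measured genes on the high side and 1.68% on the low side. At 1.5-fold, 1 collagen was higher (Col5a3) and 3 were lower (Col8a2, Col11a1 and Col12a1), beside 8.26% of all genes higher and 3.8% lower. Col8a2 and Col12a1 were not well above background in transgenic on array 1. With both colours required well above background, 0 collagens passed 2-fold, and 1 higher (Col5a3) and 1 lower (Col11a1) passed 1.5-fold. With another background correction of array 1, described below, 0 passed 1.5-fold, beside 3.22% of all genes higher and 1.25% lower. Above 0 on both arrays were 10 collagens (41.7%) and below 0 on both were 9 (37.5%), with 5 of opposite sign, against 35.3% and 35.7% of all genes. Their median was 0.16 and that of all genes was -0.0079. Array 1 alone gave a collagen median of -0.0040 and array 2 alone 0.15, and centring on the spike-ins turned the value to -0.30. With 24 genes in the family, each called gene is a large part of any share, and the shares are given as a description.

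**Figure D1:**
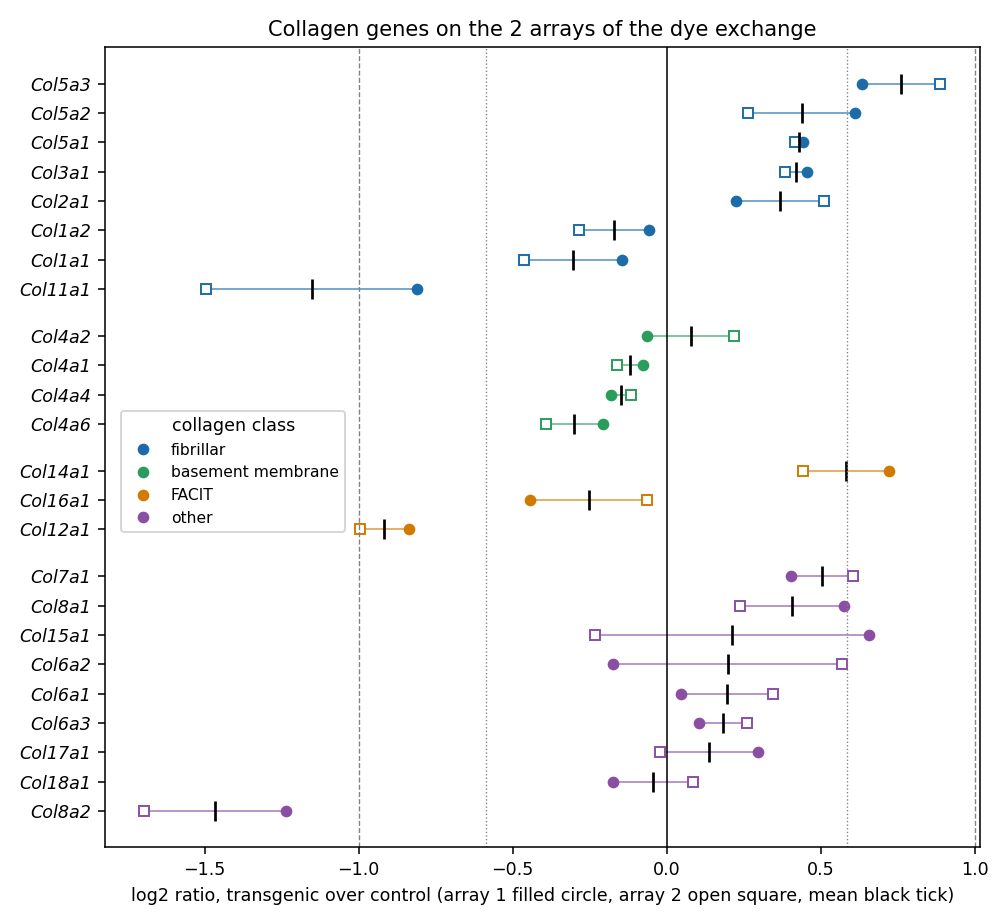
Log2 ratio of transgenic over control (x axis) for each of the 24 measured collagen genes (y axis, grouped by class), with array 1 as a filled circle, array 2 as an open square, the mean as a black tick, and dashed and dotted lines at 2-fold and 1.5-fold. Col8a2, Col11a1 and Col12a1 lie past the lower 1.5-fold line on both arrays and Col5a3 past the upper one; Col15a1 and Col6a2 have their 2 arrays on opposite sides of 0.

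The fibrillar collagens split by chain. Of 8 measured, 5 were above 0 on both arrays (Col5a3, Col5a2, Col5a1, Col3a1 and Col2a1) and 3 were below (Col1a2, Col1a1 and Col11a1), with a median of 0.39 that turned to -0.066 on the spike-in scale. None of the type I and type III genes passed the 1.5-fold rule.

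Col1a1 and Col1a2 encode the chains of type I collagen, the main fibre of the dermis. Col1a1 (NM_007742) read -0.14 and -0.46, a mean of -0.30, at an array-1 signal of 169282 in control and 153254 in transgenic. Col1a2 (NM_007743) read -0.06 and -0.29, a mean of -0.17, at 105257 and 101264. The partners thus lay within 0.13 of each other in the mean (0.09 on array 1 and 0.18 on array 2), less than the gap between the arrays for either gene. Col3a1 (NM_009930), which encodes the only chain of type III collagen, a fibril partner of type I in skin and vessel walls, read 0.45 and 0.38, a mean of 0.42 or 1.34-fold, at 81040 and 111059. On the spike-in scale Col3a1 was at -0.040 and Col1a1 at -0.76, so the direction of Col3a1 depends on the scaling. A shift of a whole array cannot move the gap between the genes: Col3a1 exceeded Col1a1 by 0.60 on array 1 and by 0.85 on array 2, which averages 0.72, and Col3a1 minus Col1a2 was 0.51 and 0.67. In the mean of the arrays the type III chain was thus 1.65-fold higher relative to Col1a1 and 1.51-fold relative to Col1a2, with the same direction on each array.

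The size of the Col1a1 difference varied between its probes. All 3 of its probes were well above background, and the reading frame places 2 of them in coding sequence. The first 2 sequences below are these Col1a1 probes, with in-frame cysteine codons in capitals; the first lies in the carboxy-terminal propeptide and the second in the cysteine-rich amino-terminal propeptide, both of which are cut off when the fibril forms. The last is the Col1a2 probe at the end of its coding sequence, with the first in-frame stop codon in capitals. All are printed 5′ to 3′ on the strand of the transcript.
Col1a1, carboxy-terminal propeptide: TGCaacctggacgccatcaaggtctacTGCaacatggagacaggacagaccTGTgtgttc
Col1a1, amino-terminal propeptide: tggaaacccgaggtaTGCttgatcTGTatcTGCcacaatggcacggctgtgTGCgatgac
Col1a2, end of coding sequence: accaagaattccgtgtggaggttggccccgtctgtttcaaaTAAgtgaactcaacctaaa

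On the array design's build, mm8, the brightest Col1a1 probe covers chromosome 11, 94767851 to 94767910, the carboxy-terminal propeptide probe 94766828 to 94766887 and the amino-terminal one 94754053 to 94754112, all on the plus strand. In genomic distance the last 2 lie 1.023 kb and 13.798 kb before the first. The carboxy-terminal probe read -0.66 and -0.36, a mean of -0.51, at an array-1 signal of 15280 in control and 9688 in transgenic. The amino-terminal probe read -0.85 and -0.91, a mean of -0.88, at 567 and 315, and alone would have passed the 1.5-fold rule. All 3 probes were below 0 on both arrays, and their means spanned 0.57 log2 units, the widest span among the 7 collagens with several measured probes. Signal and distance both moved with the ratio over these 3 probes on array 1 and in the mean. On array 2 the brightest probe (-0.46) read lower than the carboxy-terminal one (-0.36). The part of signal and of distance was not tested. Against the carboxy-terminal and amino-terminal probes the gap to Col3a1 was 0.93 and 1.30.

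**Figure D2:**
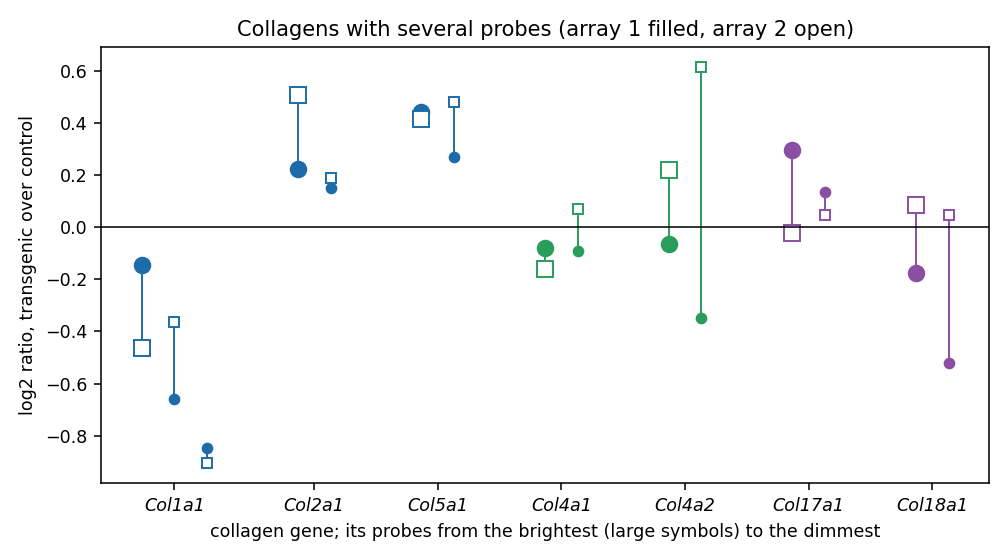
Log2 ratio of transgenic over control (y axis) for the 7 collagen genes with several measured probes (x axis), each probe as a filled circle (array 1) and an open square (array 2), from the brightest probe with large symbols to the dimmest; blue marks fibrillar, green basement membrane and purple other collagens. The Col1a1 probes run from -0.30 to -0.88 in the mean and all lie below 0, while the 2 Col5a1 probes lie above 0 at 0.43 and 0.38.

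Type V collagen chains sit inside type I fibrils and limit their width, and all of its measured chain genes were above 0 on both arrays. Col5a3 (NM_016919; mm8, chromosome 9, 20520550 to 20520609, minus strand) read 0.63 and 0.89, a mean of 0.76 or 1.69-fold, at an array-1 signal of 2398 in control and 3719 in transgenic. It was the only collagen past the 1.5-fold rule on the high side. It remained above 0 on the spike-in scale, at 0.30, but lost the call there, and also with another background correction of array 1 (normexp and loess), where array 1 read 0.48.

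Col5a1, a chain of the common type V helix, read 0.44 and 0.42, a mean of 0.43, at 3898 and 5303. Its second probe had a mean of 0.38, with a control signal on array 1, 228, that was not well above background. Col5a2 read 0.61 and 0.27, a mean of 0.44, at 1553 and 2373. Both turned to slightly below 0 on the spike-in scale, at -0.029 and -0.021. Col5a3 exceeded Col5a1 by 0.19 on array 1 and 0.47 on array 2, whereas Col5a2 and Col5a1 differed in opposite directions on the arrays (0.17 and -0.15).

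The second Col5a1 probe crosses an exon junction, since its 60 bases span 2424 bases of mm8, chromosome 2, 27808732 to 27811155. It is shown because it lies in the helix: the capitals mark GGN, the glycine codon, spaced evenly with a pair of other codons between, 6 times in 19 codons.
Col5a1, helix: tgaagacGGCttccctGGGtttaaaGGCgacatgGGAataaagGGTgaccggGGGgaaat

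Col11a1 and Col2a1 are best known from cartilage, where their chains share a fibril, yet on the deposited scaling they went opposite ways. On the spike-in scale both were below 0, Col11a1 at -1.61 and Col2a1 at -0.091. Col11a1 (NM_007729; mm8, chromosome 3, 114211239 to 114211297, plus strand) encodes a type XI chain that also pairs with type V chains outside cartilage. It read -0.81 and -1.50, a mean of -1.15, 2.22-fold lower, at an array-1 signal of 1051 in control and 600 in transgenic. It passed the 1.5-fold rule, and missed the 2-fold rule on array 1 only. With normexp and loess array 1 read -0.37 and the call was lost, although the mean stayed at -0.93. The other 2 Col11a1 probes were not well above background.

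Col2a1, the type II chain, read 0.23 and 0.51, a mean of 0.37, at 5517 and 6452, and was at -0.091 on the spike-in scale. Its second measured probe read 0.17 in the mean at 222 and 247, the latter not well above background. That probe overlaps the first and shares 40 bases with it (in capitals). Both are shown, 5′ to 3′, because they report one stretch near the end of the coding sequence and so count as 1 site.
Col2a1, brighter probe: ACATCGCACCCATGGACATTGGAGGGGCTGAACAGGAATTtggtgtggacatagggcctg
Col2a1, dimmer probe: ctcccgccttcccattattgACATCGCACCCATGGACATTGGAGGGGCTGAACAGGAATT
Col2a1 minus Col11a1 was 1.04 on array 1 and 2.01 on array 2, and 0.57 on array 1 with normexp and loess. Of 6 cartilage and bone markers, 1 was measured, Sox9, at a mean of 0.02, and Acan, Comp, Bglap, Ibsp and Matn1 were not well above background. The remaining fibrillar genes Col11a2, Col24a1 and Col27a1 were not well above background either.

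**Figure D3:**
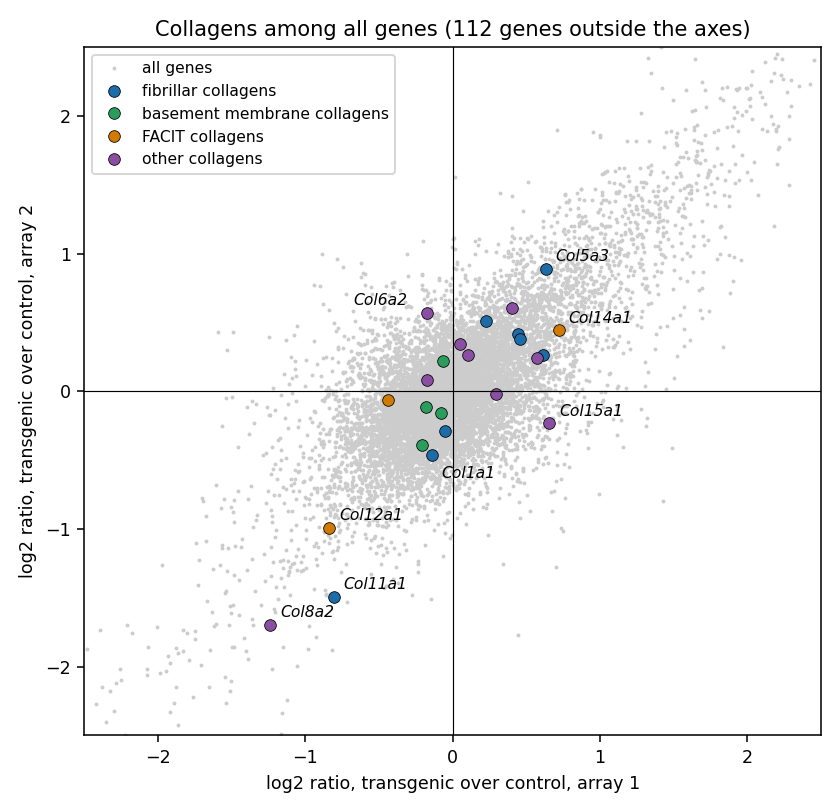
Log2 ratio of transgenic over control on array 1 (x axis) against array 2 (y axis) for all 10456 measured genes (grey) and the 24 measured collagens (coloured by class); 112 genes lie outside the axes, which end at 2.5. Most collagens sit inside the dense centre; Col8a2, Col11a1 and Col12a1 lie in the lower left and Col5a3 at the upper right of the collagens.

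The FACIT collagens, which decorate fibrils, held one of the highest and one of the lowest values of the family. Their median of -0.25 rests on 3 genes and turned to 0.16 when probes had to be well above background in both colours, which left Col12a1 out. Col14a1, which binds the fibril surface in skin and tendon, read 0.72 and 0.44, a mean of 0.58 or 1.497-fold, at 2593 and 4275, and missed the 1.5-fold rule on array 2. It was at 0.12 on the spike-in scale. Col16a1, found near basement membranes and fibrils, read -0.44 and -0.06, a mean of -0.25, at 6113 and 4499.

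Col12a1 (NM_007730; mm8, chromosome 9, 79385147 to 79385206, minus strand), a fibril surface collagen of dense connective tissue, read -0.84 and -0.995, a mean of -0.92, at 314 in control and 176 in transgenic. The transgenic signal was not well above background. With that colour set at the lowest signal well above background, 190, Col12a1 was 1.65-fold lower on array 1, which is no strict lower bound. Its other probe was not well above background, and with normexp and loess the array-1 value was -0.18 and the call was lost. Col14a1 minus Col12a1 was 1.56 on array 1 and 1.44 on array 2, but 0.73 on array 1 with normexp and loess. Col9a1, Col9a2, Col9a3, Col19a1, Col20a1 and Col22a1 were not well above background.

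The basement membrane collagens of type IV showed small differences, and 0 of 4 passed either size rule. Their median was -0.13, with 3 genes below 0 on both arrays, and -0.59 on the spike-in scale. Col4a1 and Col4a2 encode the chains of the common type IV helix. Col4a1 read -0.08 and -0.16, a mean of -0.12, at 3141 and 2977, and Col4a2 read -0.06 and 0.22, a mean of 0.08, at 984 and 942. Col4a2 minus Col4a1 was 0.01 on array 1 and 0.38 on array 2, so the arrays did not settle a difference between the pair. In RefSeq (GRCm38.p6) these genes start 21 bases apart on opposite strands of chromosome 8.

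Col4a4, a chain of kidney and other specialised membranes, read -0.18 and -0.11, a mean of -0.15, at 776 and 685. Col4a6, a chain of epidermal and smooth muscle membranes, read -0.21 and -0.39, a mean of -0.30, at 720 and 624, and passed the 1.5-fold rule on the low side only on the spike-in scale, as did Col1a1. Col4a5, whose start lies 1343 bases from that of Col4a6 on the opposite strand of the X chromosome, and Col4a3 were not well above background.

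Among the other collagens, 4 of 9 were above 0 on both arrays, 1 was below on both and 4 had opposite signs, with a median of 0.20 that was -0.26 on the spike-in scale. The type VIII chains lay on opposite sides of 0 on the deposited scaling. Col8a2 (NM_199473; mm8, chromosome 4, 125816501 to 125816560, plus strand), a chain of the hexagonal nets of the cornea's inner membrane and of vessel walls, read -1.24 and -1.70, a mean of -1.47, the lowest of the 24 measured collagens. Its array-1 signal was 417 in control and 177 in transgenic, the latter not well above background. With that colour set at 190, Col8a2 was 2.19-fold lower on array 1, again no strict bound, and the measured mean corresponds to 2.76-fold lower. With normexp and loess, which added an offset of 50, array 1 read -0.24 and neither size rule was passed, while the mean was -0.97. Its partner Col8a1 read 0.57 and 0.24, a mean of 0.41, at 512 and 762, and was at -0.053 on the spike-in scale. Col8a1 minus Col8a2 was 1.81 on array 1 and 1.93 on array 2 as measured, and 0.47 on array 1 with normexp and loess; since the transgenic colour of Col8a2 was dim on array 1, no fold is given for this gap.

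The collagens that fasten the epidermis to its basement membrane and the dermis had means above 0 on the deposited scaling, and neither passed the 1.5-fold rule. Col7a1, which forms the anchoring fibrils that hold the epidermis to the dermis, read 0.40 and 0.61, a mean of 0.50 or 1.42-fold, at 7009 and 9267, and was at 0.045 on the spike-in scale. Col17a1, the hemidesmosome collagen that spans the membrane of basal keratinocytes, read 0.30 and -0.02, a mean of 0.14, at 22015 and 27044. Its second probe had a mean of 0.09, and on the spike-in scale Col17a1 was at -0.32. Col7a1 minus Col17a1 was 0.11 on array 1 and 0.63 on array 2.

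Type VI collagen, made of chains that assemble as beaded filaments around cells, differed little. Col6a1 read 0.05 and 0.34, Col6a2 -0.17 and 0.57, and Col6a3 0.11 and 0.26, with means of 0.20, 0.20 and 0.18. Their array-1 signals went from 1272 to 1315, from 667 to 591 and from 11212 to 12072. On the spike-in scale Col6a1 and Col6a3 were below 0, at -0.26 and -0.28, and Col6a2 too changed sign.

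The vessel and epithelial basement membrane collagens XV and XVIII, both of which carry long sugar chains, gave unstable or small values. Col15a1 read 0.66 and -0.23 at 290 and 457, so its mean of 0.21 has no settled direction, and it was at -0.020 with normexp and loess. Col18a1 read -0.17 and 0.09, a mean of -0.04, at 3530 and 3130, with a second probe at -0.24. The genes Col10a1, Col13a1, Col23a1, Col25a1, Col26a1, Col28a1, Col6a4 and Col6a6 were not well above background.

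**Figure D4:**
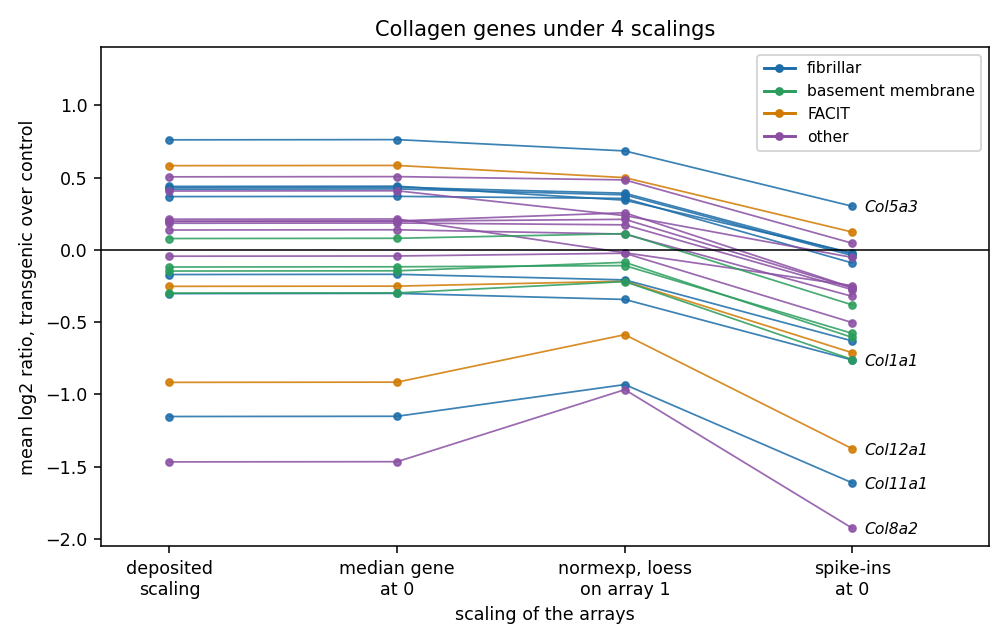
Mean log2 ratio of transgenic over control (y axis) of each measured collagen (1 line per gene, coloured by class) under 4 scalings of the arrays (x axis). Centring on the median gene left the values in place, normexp and loess on array 1 drew the 3 lowest genes toward 0, and centring on the spike-ins left 3 genes above 0 and 21 below.

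Centring on the spike-ins lowers every collagen by the same amount, so it changes directions but not the order of the genes. On that scale 11 of 24 genes changed sign (Col15a1, Col17a1, Col2a1, Col3a1, Col4a2, Col5a1, Col5a2, Col6a1, Col6a2, Col6a3 and Col8a1), and Col5a3, Col14a1 and Col7a1 remained above 0. Of all genes, 68.8% of the 2-fold calls were higher on the deposited scale and 27.8% on the spike-in scale; at 1.5-fold these were 68.5% and 13%. At 2-fold, 3 collagens were then lower (Col8a2, Col11a1 and Col12a1), beside 4.37% of all genes. At 1.5-fold 5 were lower, Col1a1 and Col4a6 being the added ones, beside 22.8%. With normexp and loess 0 collagens passed 1.5-fold, beside 3.22% of all genes higher and 1.25% lower.

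The promoters of the collagens at both ends are shown next, since their ratios lay farthest from 0 and the table of RefSeq promoters holds them; 35 collagen genes matched that table. Each sequence is the 250 bases before the annotated start, 5′ to 3′ on the gene's strand, from GRCm38.p6, a later build than that of the probes. Capitals mark the CCAAT box (CCAAT, or ATTGG on the other strand), and each motif below was searched on both strands.
Col8a2, chr4:126286544-126286793, plus strand: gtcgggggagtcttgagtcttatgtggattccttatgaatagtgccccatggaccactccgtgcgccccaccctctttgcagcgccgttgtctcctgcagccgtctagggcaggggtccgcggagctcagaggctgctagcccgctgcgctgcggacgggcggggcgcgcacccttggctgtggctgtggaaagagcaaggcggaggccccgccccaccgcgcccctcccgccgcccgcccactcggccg
Col11a1, chr3:114030290-114030539, plus strand: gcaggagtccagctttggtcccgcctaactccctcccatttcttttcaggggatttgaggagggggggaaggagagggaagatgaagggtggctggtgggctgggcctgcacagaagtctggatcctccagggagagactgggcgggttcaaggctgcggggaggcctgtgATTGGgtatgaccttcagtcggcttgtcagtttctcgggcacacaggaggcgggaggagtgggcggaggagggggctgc
Col5a3, chr9:20815068-20815317, minus strand: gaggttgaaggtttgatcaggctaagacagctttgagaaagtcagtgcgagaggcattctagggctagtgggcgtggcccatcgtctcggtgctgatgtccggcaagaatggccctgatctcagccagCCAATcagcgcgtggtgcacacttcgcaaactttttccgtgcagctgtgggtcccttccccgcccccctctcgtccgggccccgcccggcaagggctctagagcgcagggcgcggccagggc

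A CCAAT box was found 79 bases before the start of Col11a1 and 122 bases before that of Col5a3, and not in the Col8a2 window. It was in 13 of 38 collagen promoters (34.2%) and in 33.8% of 32851 promoters of all genes. The GC box, GGGCGG, was in 22 of 38 collagen promoters (57.9%) and in 32.7% of all, with 4 matches before Col8a2 and 2 before each of the other two. The letters TATAAA were in 5 of 38 (13.2%) and in 12.4% of all.

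The genes that make, trim and bind collagen were read from lists in the same way, and their calls stand beside 8.26% of all genes higher and 3.8% lower at 1.5-fold. Those that fold, hydroxylate and export collagen chains had a median of 0.09 over 14 measured of 21 (-0.37 on the spike-in scale), and 0 passed the 1.5-fold rule. Serpinh1, the collagen chaperone, was among them. Of the 8 measured genes that trim procollagen and cross-link fibrils (median 0.21, or -0.25 on the spike-in scale), 1 passed: Loxl1, a cross-linking oxidase, at 0.91 and 0.99. Of 15 that break collagen down or restrain that (median 0.29, or -0.17), Mmp3, a matrix protease, was higher at 1.19 and 1.004, and Prep, a peptidase that cuts after proline, was lower at -0.59 and -0.82.

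Proteins that bind fibrils had a median of 0.39 over 20 measured of 27 (-0.074 on the spike-in scale), with 4 higher and 1 lower at 1.5-fold, beside 8.26% and 3.8% of all genes. Mfap5, a microfibril protein, read 1.49 and 1.05, and Eln, elastin, 1.04 and 1.08. Their control signals on array 1, 162 and 219, were not well above background. Postn, periostin, read 0.84 and 1.06, and Ogn, a small proteoglycan, 0.71 and 0.59. Vcan, a large proteoglycan, was the lower one at -0.84 and -0.77, from 289 in control to 161 in transgenic, the latter not well above background.

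Basement membrane partners had a median of 0.10 over 14 measured genes (-0.36 on the spike-in scale), and Lama4, a laminin chain of vessel walls, was higher at 1.103 and 1.01. Neither the 5 hemidesmosome partners (median 0.23, or -0.23) nor the 8 collagen receptors (median 0.21, or -0.25) held a gene past 1.5-fold. The 15 measured genes listed for TGF-beta and CTGF signalling had a median of -0.11 (-0.57 on the spike-in scale) and 0 past 1.5-fold. Their means ran from -0.83 (Smad7) to 0.58 (Ccn1). The median of this list is no measure of how active the signalling was. Ccn2 (CTGF) itself was at 0.03.

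**Figure D5:**
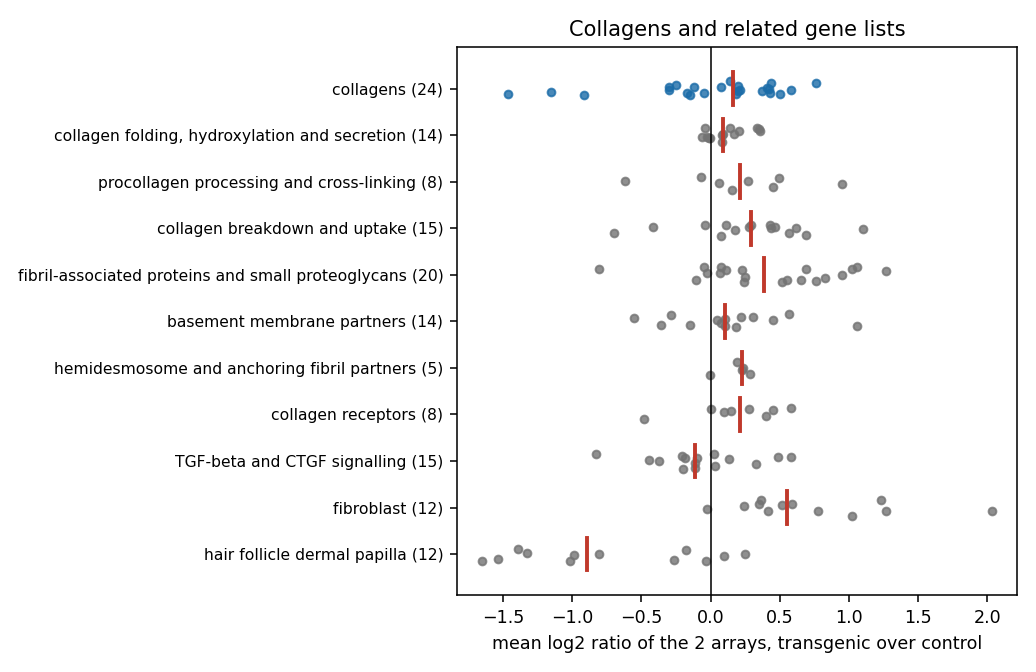
Mean log2 ratio of transgenic over control (x axis) for the measured collagens (blue) and for the measured members of 10 related lists (grey; y axis, number of genes in brackets), with a red line at each median. Folding genes lie close to 0, fibril-associated and fibroblast genes mostly above it, and 7 of 12 dermal papilla genes past 1.5-fold below it.

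Markers of the cells that make collagen also differed between the pools. Their counts stand beside 8.26% of all genes higher at 1.5-fold, 3.72% higher at 2-fold and 35.3% above 0 on both arrays. Fibroblast markers had a median of 0.55 over 12 measured of 12 (0.09 on the spike-in scale), with 11 above 0 on both arrays and 4 past 1.5-fold: Pi16 at 1.64 and 2.42, Mfap5, S100a4 at 1.25 and 1.21, and Pdgfrb at 0.88 and 0.67. The summed array-1 signal of the 12 was 102240 in control and 145385 in transgenic. Within it S100a4 (11692 to 27872) and Vim (24299 to 39321) rose most. Dcn, the brightest, was the only one that fell, from 44575 to 43314. Type I chains thus read below 0 while most fibroblast markers read above it; Dcn, decorin, a fibroblast marker and fibril-binding proteoglycan, was at -0.04 and -0.01. Endothelial and mural markers had a median of 0.55 over 7 of 9 measured, with Vwf, Rgs5 and Kdr higher past 1.5-fold. Cdh5 (mean 0.55), Cspg4 (0.28), Acta2 (-0.03) and Myh11 (-0.05) passed neither rule. Adipocyte markers had a median of 1.55 over 5 of 6, all 5 past 2-fold and led by Cfd at 2.08, macrophage markers 1.07 over 4 of 5, keratinocyte markers 0.61 over 7 of 7, skeletal muscle markers 0.19 over 6 of 6 and Schwann markers 0.63 over 3 of 4. On the spike-in scale the median of skeletal muscle alone among these was below 0, at -0.27. That list was split: Myh1 and Myh2 passed 2-fold on the deposited scale (means 1.32 and 1.34), and the other 4 passed neither rule. On the spike-in scale Myh1 and Myh2 were at 0.86 and 0.88.

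Genes listed for the hair follicle's dermal papilla, the fibroblast cluster at the base of the hair, included genes that were lower in the transgenic pool. This list was written after the collagen values were seen. Of 22 genes, 12 were measured, with a median of -0.89 (-1.35 on the spike-in scale). On the deposited scale 7 were lower past 1.5-fold and 4 lower past 2-fold, beside 3.8% and 1.68% of all genes. The spike-in scale put 22.8% and 4.37% of all genes lower, and the list was not counted on it. The other 5 measured genes (Ncam1, Enpp2, Ptch1, Inhba and Sox18) lay between -0.26 and 0.25 and passed neither rule on the deposited scale. Lef1 read -1.61 and -1.69, Wif1 -1.51 and -1.56, Bmp6 -1.34 and -1.45 and Alpl -1.28 and -1.38. The array-1 signal of Bmp6 went from 262 in control to 103 in transgenic, the latter not well above background. Vcan, also among the 7, was likewise dim in transgenic. The summed array-1 signal of the 12 genes was 19590 in control and 10273 in transgenic. Within it Lef1, the brightest, went from 6249 to 2047. Above 0 on both arrays was Sox18, and 10 genes, among them the defining markers Corin, Sox2 and Crabp1, were not well above background in either pool. Whether the lower genes report papilla cells or other cells of the follicle was not tested. Hair shaft keratins, a second list of 13 genes written after the values were seen, had 10 of 10 measured genes lower past 2-fold. Their median was -3.17. Krt34, Krt31, Krt86, Krt82 and Krt36 were not well above background in transgenic on array 1, so they counted as measured through the control alone. The median lies between Krt86 (-3.57) and Krt82 (-2.78), both among these dim genes. The part of either list in the collagen values was not tested. Without Col8a2, Col11a1 and Col12a1 the median of the other 21 collagens was 0.20, with 10 above 0 on both arrays and 6 below.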

How the data were processed

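Per the labels' protocols, 500 ng of total RNA was amplified, dye-labelled and run on 2 Agilent arrays. Spot intensity in both channels was deposited for array 1; Agilent Feature Extraction 9.5.1.1 subtracted background and normalised the dyes, per the file headers. Dim signals are replaced by surrogates there, per the file headers, which compresses ratios near background. The deposited value table holds log10 Cy5 over Cy3 for each array: for array 1 it matched the scanner's processed signals at 43790 of 43790 features (within 1e-08). For array 2 only this table was used. Its direction follows the labelled dyes and the data: before turning array 2, the correlation between the columns was -0.579 outside control features and 0.9996 over spike-ins, which follow the dye. Column medians were 0.0141 and -0.0234.

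Values were converted to log2. Outlier spots (29, of which 0 on collagen probes) were left out, spots of a probe were averaged, and the brightest probe stood for a gene. No collagen probe (0) was saturated on array 1; array 2 was not checked. "Well above background" is the scanner's flag; the lowest such signals were 199 (Cy3) and 190 (Cy5). A fold given with the dim colour set at that signal uses array 1 alone, so dye bias can enter it. It is no strict lower bound, since some brighter signals lacked the flag, such as Fap at 271 in Cy5. The number of arrays limits the precision. Genes were named through a RefSeq table of GRCm38.p6; 4 collagens carry the array's name only. Probe coordinates are those of the array design (mm8). Alternatives used python 3.11.15, R 4.3.3 and limma 3.58.1 (normexp with an offset of 50, then loess).

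The members, classes and gene lists were chosen with earlier results of these data known. Every measured collagen is named; from the related lists, up to 4 genes past 1.5-fold by the largest mean, and other named list genes were chosen after their values were seen.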

Additional observations from a re-analysis of the deposited data

How the results depend on the processing

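Among 8 other settings, centring on the median gene changed no count or median of the collagens beyond the spread of the arrays. Without the filter on dim probes the fibrillar median was 0.25 and the FACIT median 0.12. With probes well above background in both colours, 0 collagens passed 2-fold (0 lower), 2 passed 1.5-fold (1 lower), and the FACIT median was 0.16. With the median over a gene's probes the fibrillar and basement membrane medians were 0.34 and -0.11. On the spike-in scale 3 collagens passed 2-fold (3 lower), 0 were higher and 5 lower at 1.5-fold, and the medians were -0.30 (all), -0.066 (fibrillar), -0.59 (basement membrane), -0.71 (FACIT) and -0.26 (other). With normexp and loess for array 1, 0 passed 2-fold (0 lower) and 0 passed 1.5-fold (0 higher, 0 lower), and the fibrillar and basement membrane medians were 0.35 and -0.098; the cause was not tested.

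With 1 array left out the counts were 1 to 2 at 2-fold (1 to 2 lower) and 5 to 7 at 1.5-fold (2 to 4 higher), the median of all collagens was -0.0040 to 0.15, and that of fibrillar collagens 0.32 to 0.34. With array 2 alone 3 collagens changed sign (Col15a1, Col17a1 and Col18a1), and with array 1 alone 2 (Col4a2 and Col6a2). Of the 2 settings chosen after seeing the data, the second brightest Col1a1 probe left the median at 0.16. No paired analysis was possible because the results come from no test and there is 1 group of ratios, with no second group to pair. Array signal limits Col8a2 and Col12a1, whose transgenic colour was dim.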

Other observations

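Some collagen probes that were not well above background gave large ratios on 1 array that the other did not repeat. A second Col4a4 probe read 0.95 on array 1 and -0.94 on array 2. A second Col1a2 probe read 0.46 and -1.06, and the Col26a1 probe 0.97 and -0.22. A second Col4a6 probe, dim in both colours, read 0.36 and 0.33, opposite to the measured Col4a6 probe at -0.21 and -0.39. The Col9a2 probe read -0.25 and 0.87.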
